A study of Rattus norvegicus with 50 samples.

Results

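The genes described here are the coagulation and complement genes of the liver, a fixed list of 36 symbols of clotting factors, fibrinogen chains, anticoagulants and fibrinolysis proteins, and complement proteins. Of these, 31 had a probe set that carries their symbol alone and are the members measured, out of 14217 genes tested on the same arrays. F7, F11 and F13b had no probe set with their symbol, and C2 and Cfb share 4 probe sets that carry both symbols. Where several probe sets carried a symbol, the 1 with the brightest mean signal over the 50 arrays stood for the gene. Liver RNA came from 50 female rats of the Brown Norway strain (Bn/Crl, MHC haplotype RT1n, 9 to 11 weeks of age), with 1 array per rat and 17 groups. Galactosamine rats received 1 injection of 750 mg/kg into the abdomen and were taken 3 h, 24 h, 48 h and 8 d later. Combination rats had been given nevirapine by mouth for 7 d (150 mg/kg on day 1, 100 mg/kg on the next 2 days and, after 1 day without drug, 75 mg/kg) before the same injection, continued on 75 mg/kg, and were taken at the same 4 times. Nevirapine rats were taken 3 h (after 1 dose of 150 mg/kg), 24 h (150 and then 100 mg/kg) and 48 h (3 doses, 150 and then 100 mg/kg) after the start of dosing and at 15 d, after the 16 doses of the combination schedule, and had a sham injection into the abdomen. At 3 h that sham injection preceded removal of the liver by 1 h. Vehicle rats had sham injections and sham oral doses and were taken at 3 h, 24 h, 48 h, 8 d and 15 d. Galactosamine rats also had oral doses, without nevirapine. The last oral dose preceded removal of the liver by 5 h in the 3 h groups, except nevirapine at 3 h (3 h). In the groups of all later times it preceded removal by 2 h. All groups held 3 rats except galactosamine at 48 h, which held 2. The combination rats at 8 d after the injection had been dosed for 15 d and were compared with the vehicle rats at 15 d. Those at 3 h, 24 h and 48 h had been dosed for 7, 8 and 9 d. They were compared with vehicle and galactosamine rats of the same time label, and a match in days of oral dosing was not checked. The study set out to follow the 8 d in which fibrosis developed after both drugs and not after either alone.

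Clotting factors circulate as inactive precursors, most of them serine proteases made by hepatocytes, which activate each other in sequence until thrombin turns fibrinogen into fibrin. Complement is a second protease cascade of the blood, started by antibody complexes (C1r, C1s) or by lectins that bind sugars on microbes (Mbl1, Mbl2 with Masp1, Masp2), which meet at C3 and end in the membrane attack complex of C5 to C9. Hepatocytes are the main source of most of these proteins, and galactosamine is an amino sugar that injures hepatocytes and depletes their uridine nucleotides. Nevirapine is an antiretroviral drug that inhibits the reverse transcriptase of HIV.

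The 31 members gave strong signals: 28 had a mean in the top 10% of all genes tested. The hepatocyte marker Alb lay between log2 14.14 and 14.18 in all group means, close to the highest signal of any probe set on any array (14.2), and the brightest members, such as C3, lay not far below it. Array medians ranged from 4.95 to 5.09. The difference between the 3′ and 5′ probe sets of GAPDH, which grows as RNA degrades, lay between 0.0089 and 0.86. The labels gave no batch or date. Levels below are log2 signals of the probe set, and changes are log2 differences with the standard error (SE) of a limma fit over all 50 arrays. A change was called when its adjusted p (Benjamini-Hochberg over 14217 genes) was under 0.05, and rose, fell, higher and lower are used of called changes. In whole liver, fewer hepatocytes and less RNA per hepatocyte cannot be told apart.

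**Figure D1:**
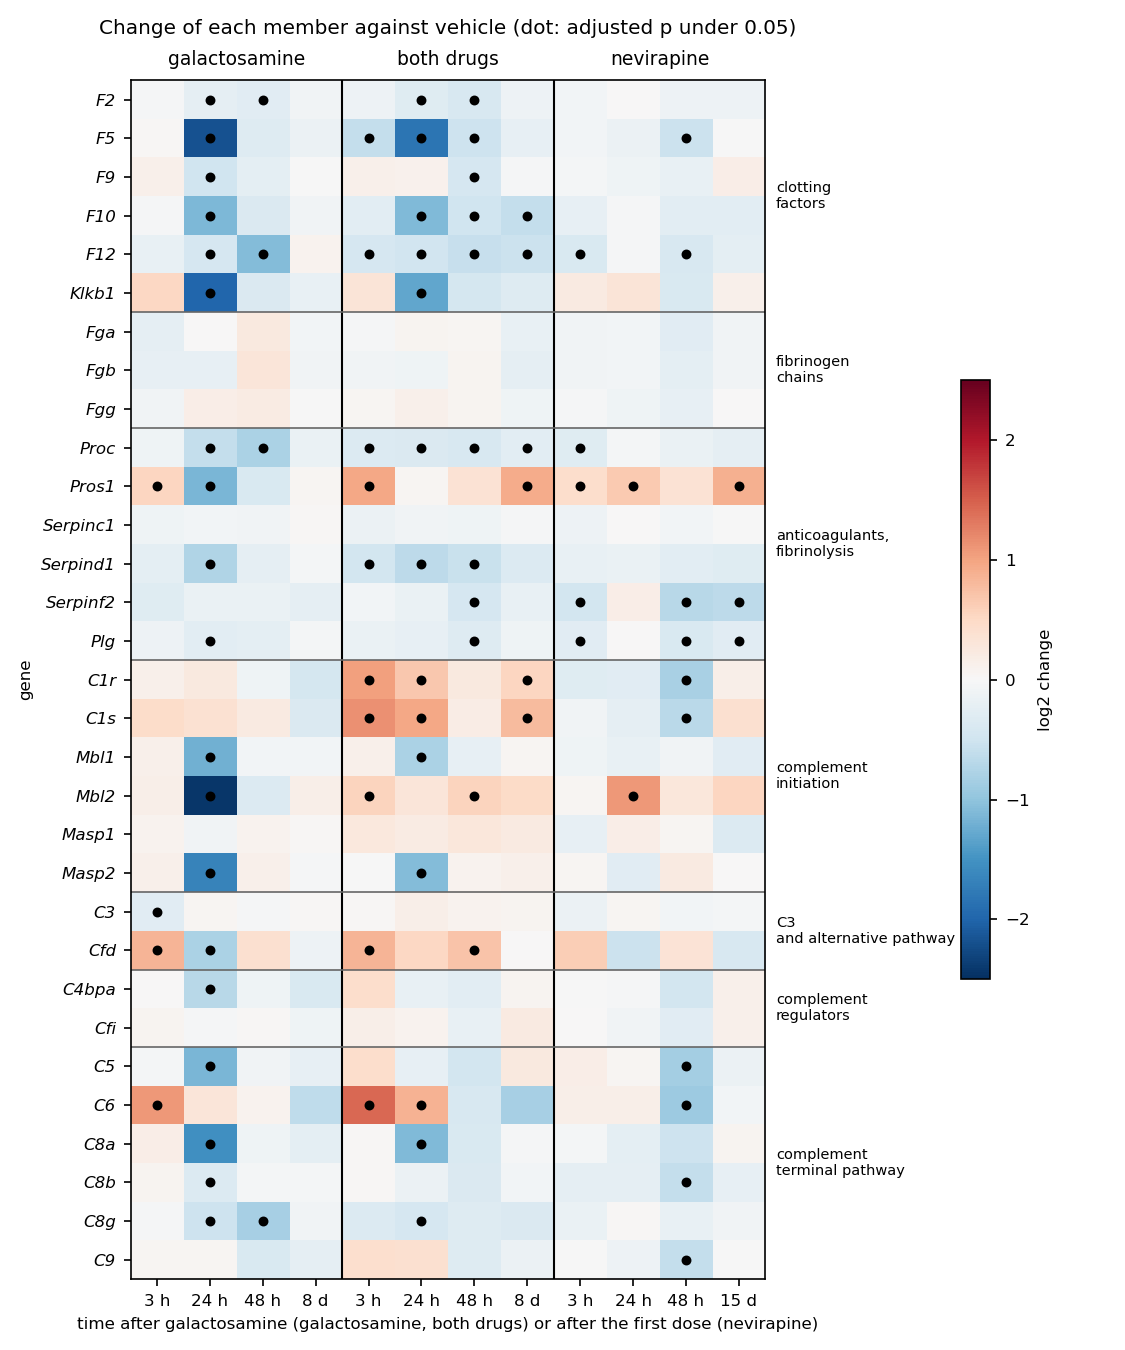
Log2 change of each of the 31 members (rows, by role) against vehicle rats in the 12 treated groups (columns, by time). Colour gives the change from -2.5 to 2.5 and a dot marks an adjusted p under 0.05; the 24 h galactosamine column holds the most dots, 19, and the 8 d galactosamine column none.

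The comparison with vehicle rats asks what each drug did to these genes at each time, and the most calls, 19, were made at 24 h after galactosamine alone. There 19 of the 31 members were lower than in vehicle rats and none was higher. Of all 14217 genes 58.8% were called in this comparison, 28.5% lower and 30.2% higher, so that the share of members called, 61.3%, was near that of all genes, while the share called lower was above the 28.5% of all genes. The median change of the members was -0.42, against -0.068 for all genes. In 16 of the 31 members the 3 galactosamine rats were all below the 3 vehicle rats, an order found in 30.8% of all genes. Markers of hepatocytes moved at the same time: 5 of 10 were lower and 1 was higher, with summed levels of 16.10 to 16.18 against 16.34 to 16.37 in vehicle rats and none of the 10 below background in all groups, and their part in the falls of the members was not tested. Alb is the brightest part of that sum, and Cyp2c11, with group means from 4.45 to 6.43, came close to the background level of 4.37. The split depended on the scaling: after cyclic loess normalization 12 members were lower, all among the 19, and 6 were higher. Those 6 were Fga (0.37), Fgg (0.53), Serpinc1 (0.30), C1s (0.56), C3 (0.45) and Cfi (0.26), none of which was called without it. All genes shifted too: their median moved by 0.074. Among all genes called, 51.4% were higher without this normalization and 56.4% with it.

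**Figure D2:**
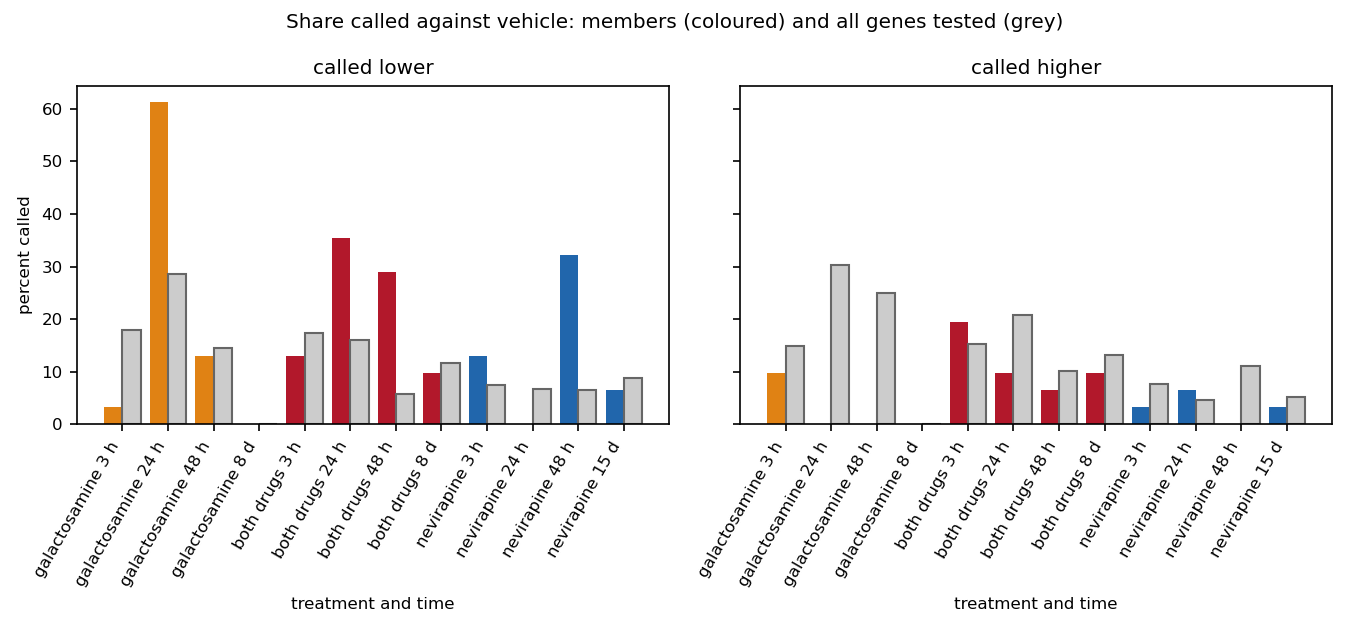
Percent of the 31 members (coloured bars) and of all 14217 genes tested (grey bars) called lower (left) or higher (right) against vehicle rats in each treated group. The members exceed all genes most clearly among the lower calls at 24 h of galactosamine, 24 h and 48 h of the combination and 48 h of nevirapine.

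Among the clotting factors, all 6 measured were lower at 24 h of galactosamine. F5, the cofactor with which factor Xa makes thrombin, read 11.09, 11.08 and 11.19 in vehicle rats and 8.87, 9.02 and 8.92 in galactosamine rats. The groups lay far apart, a change of -2.18 (SE 0.12, adjusted p = 3.1e-18) or a 4.55-fold lower signal. Klkb1, which encodes the contact protease prekallikrein, read 10.56, 10.87 and 10.63 in vehicle rats against 9.11, 9.34 and 7.68, a change of -1.97 (SE 0.26, adjusted p = 2.8e-08), with rat 24 the lowest. F10, the precursor of factor Xa, went from 11.74, 11.93 and 11.55 to 10.58, 10.94 and 10.33, a change of -1.12 (SE 0.16). The other 3 changed by less. F9, the precursor of factor IXa, changed by -0.50 (SE 0.12), F12, which starts the contact pathway, by -0.42 (SE 0.12), and F2, prothrombin, by -0.23 (SE 0.10, adjusted p = 0.042). The fall of F2 was the closest to the threshold, and its sign turned after cyclic loess normalization (0.10). F9 (-0.24) and F12 (-0.15) lost their calls under that normalization, while F5, Klkb1 and F10 kept theirs.

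With its brightest probe set, none of the 3 fibrinogen chains, whose assembled protein forms the clot, passed the test at 24 h of galactosamine. Fga has 2 probe sets, Fgb 3 and Fgg 1. When the signals of a gene's probe sets were averaged, 21 members were lower, among them the 19 above. Fga, Fgb and Masp1 are the only uncalled members with several probe sets. The lack of a call in Fga and Fgb may therefore depend on the probe set. Fga read 13.24, 13.28 and 13.02 in vehicle rats and 13.16, 13.17 and 13.22 in galactosamine rats, a change of 0.00 with a 95% interval of -0.29 to 0.29. The groups overlapped. Fgb read 13.11, 13.07 and 13.001 against 12.81, 12.74 and 13.04, a change of -0.20 (interval -0.48 to 0.08). Fgg read 13.19, 13.20 and 12.98 against 13.27, 13.33 and 13.25, and although its groups did not overlap the change was 0.16 (interval -0.06 to 0.39, adjusted p = 0.21). For these probe sets and the deposited scaling, the 3 intervals together reach from -0.48 to 0.39 and do not hold a change of the size seen in F5. They measure the spread between rats and not the effect of scaling. After cyclic loess normalization Fgg stood at 0.53, above its interval.

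Of the anticoagulants and fibrinolysis genes, 4 of 6 were lower. Pros1, which encodes protein S, the cofactor of activated protein C, read 10.17, 10.17 and 10.04 in vehicle rats and 8.75, 9.60 and 8.61 in galactosamine rats, a change of -1.14 (SE 0.14, adjusted p = 3.9e-09). Rat 23 lay closest to the vehicle rats. Serpind1, the thrombin inhibitor heparin cofactor II, changed by -0.75 (SE 0.15) and Proc, the precursor of activated protein C, by -0.60 (SE 0.10). Plg, the precursor of plasmin, changed by -0.27 (SE 0.10), with overlapping groups and a sign that turned after cyclic loess normalization (0.064). Serpinc1, antithrombin, read as a change of -0.064 (interval -0.21 to 0.078) and Serpinf2, the inhibitor of plasmin, as -0.16 (SE 0.13); neither was called.

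In complement, 9 of 16 members were lower, and the lectin pathway held the largest change of all. Mbl2, a mannose-binding lectin, read 10.41, 11.06 and 10.65 in vehicle rats and 8.78, 7.56 and 8.48 in galactosamine rats, a change of -2.43 (SE 0.19, adjusted p = 6.5e-14) or a 5.40-fold lower signal. A second probe set of Mbl2 gave -1.89. Masp2, the lectin-associated protease that cleaves C4 and C2, read 10.36, 10.43 and 10.30 against 8.71, 8.77 and 8.59, a change of -1.67 (SE 0.15), while 2 dimmer Masp2 probe sets gave -0.88 and 0.14, the latter not called. Mbl1, the other mannose-binding lectin, changed by -1.20 (SE 0.19). Masp1, a partner protease of the lectins, was not called at -0.092 (SE 0.15), although its 2 dimmer probe sets gave -0.72 and -0.43, both called. C1r and C1s, the proteases of the C1 complex, were not called either (0.24 and 0.38).

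Further down the cascade the members differed from one another. C3, where the pathways meet, read as a change of 0.058 (interval -0.070 to 0.19) and was not called, whereas C5, from which the terminal pathway starts, changed by -1.15 (SE 0.22). Cfd, factor D or adipsin, the protease of the alternative pathway, changed by -0.80 (SE 0.24). The 2 regulators differed, C4bpa (C4b-binding protein) at -0.70 (SE 0.22) and Cfi (factor I, which degrades C3b and C4b) at -0.026 (interval -0.24 to 0.19). In the terminal pathway C8a read 11.19, 11.35 and 11.25 in vehicle rats and 9.64, 9.85 and 9.71 in galactosamine rats, a change of -1.53 (SE 0.19, adjusted p = 6.8e-09). The other 2 chains of C8 changed by less, C8g by -0.53 (SE 0.14) and C8b by -0.33 (SE 0.14), both with overlapping groups. After cyclic loess normalization C4bpa (-0.43), C8g (-0.26) and C8b (-0.13) lost their calls. C6 (0.30, SE 0.32) and C9 (0.058, SE 0.21), the other 2 pore proteins, were not called. Of the 14 members with a vehicle median above 12, 7 were called at this time, and of the other 17 members 12 were; the part of signal compression near the top of the scale was not tested.

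**Figure D3:**
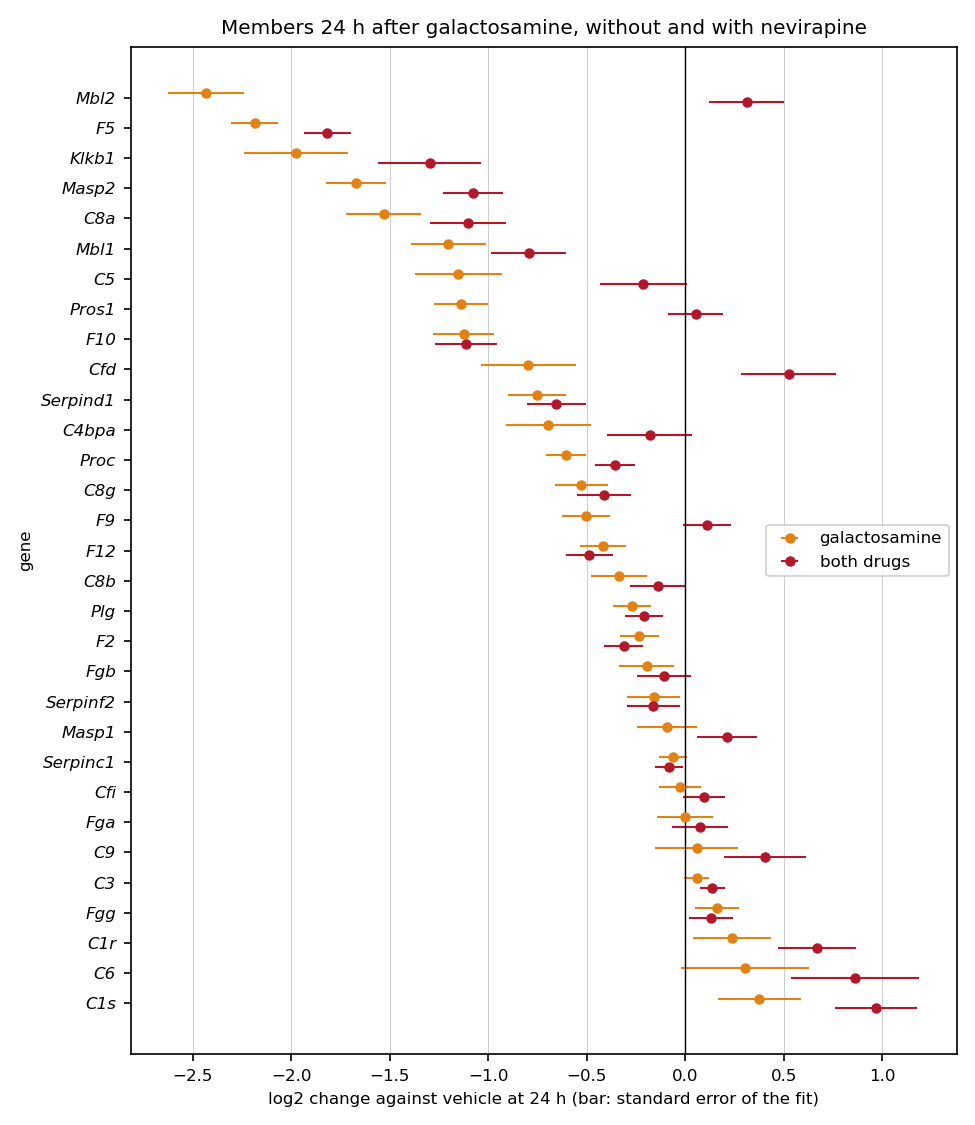
Log2 change against vehicle rats at 24 h for each member after galactosamine alone (orange) and after both drugs (red); points are differences of group means (n = 3 per group) and bars the SE of the fit. Mbl2 lies at -2.43 without nevirapine and at 0.31 with it, while F10 lies at -1.12 and -1.11.

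Given after nevirapine, the same injection left 14 members called at 24 h, 11 lower and 3 higher, where 36.7% of all genes were called (16% lower, 20.7% higher). The share of members called lower, 35.5%, was above that of all genes. Of the 10 hepatocyte markers 3 were lower, with summed levels of 16.16 to 16.27. Taking the members by role, the vehicle level below is the median of the 15 vehicle rats, with the lowest and the highest rat, and the change is that at 24 h of the combination. F5 lay at 11.05 (10.87 to 11.19) in vehicle rats. Its combination rats read 9.41, 9.61 and 8.89, a change of -1.82 (SE 0.12, adjusted p = 4e-14). Klkb1 lay at 10.91 (10.56 to 11.50) and changed by -1.30 (SE 0.26). F10 lay at 11.79 (11.56 to 11.96), and its combination rats read 10.43, 11.10 and 10.35, a change of -1.11 (SE 0.16). These 3 fell by the largest amounts of the clotting factors. F12 lay at 12.24 (11.80 to 12.38) and changed by -0.49 (SE 0.12). F2 lay at 12.96 (12.87 to 13.02), the narrowest range of all members, and changed by -0.31 (SE 0.10). F9 lay at 12.05 (11.87 to 12.19) and was the only clotting factor not called, at 0.11 (SE 0.12).

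The fibrinogen chains were again not called, and rat 69 stood above the rest in all 3. Fga had a vehicle median of 13.28 (13.02 to 13.58), and the combination rats read 13.14, 13.79 and 12.85. Fgb, with a vehicle median of 13.13 (13.001 to 13.38), read 12.91, 13.55 and 12.41. Fgg, with a vehicle median of 13.20 (12.94 to 13.41), read 13.05, 13.71 and 13.01. The changes of 0.076, -0.11 and 0.13 were within the spread of the 3 rats. Of the anticoagulants, Serpind1 had a vehicle median of 12.56 (12.48 to 12.78) and combination values of 12.01, 12.23 and 11.64, a change of -0.65 (SE 0.15), the largest in its role. Proc (vehicle 11.70, 11.52 to 11.87) changed by -0.36 (SE 0.10). Pros1 (vehicle 10.28, 10.04 to 10.51) read 10.07, 10.25 and 10.22, a change of 0.053 (SE 0.14) that was not called. Serpinc1 (vehicle 13.16, 13.04 to 13.27) stood at -0.081, Serpinf2 (vehicle 11.12, 10.68 to 11.88) at -0.16 and Plg (vehicle 12.94, 12.81 to 13.11) at -0.21, none of them called.

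The 3 members that were higher at 24 h of the combination were all complement genes. C1s (vehicle median 10.79, 10.25 to 11.57) read 10.77, 10.88 and 10.30 in the 24 h vehicle rats and 11.46, 11.73 and 11.66 in the combination rats, a change of 0.97 (SE 0.21, adjusted p = 0.00026). C1r (vehicle 10.00, 9.47 to 10.96) changed by 0.67 (SE 0.20). C6 (vehicle 8.27, 7.52 to 9.12) read 7.92, 8.35 and 7.52 against 8.50, 9.53 and 8.34, and its groups overlapped, with a change of 0.86 (SE 0.32, adjusted p = 0.033). In the lectin pathway Masp2 (vehicle 10.38, 10.06 to 10.56) read 9.01, 9.87 and 8.98, a change of -1.08 (SE 0.15), although its second probe set gave -0.091. Mbl1 (vehicle 10.41, 10.02 to 10.61) changed by -0.80 (SE 0.19). Mbl2 (vehicle 11.12, 10.41 to 11.39) read 11.34, 11.20 and 10.51, a change of 0.31 (SE 0.19), and Masp1 (vehicle 8.95, 8.63 to 9.22) stood at 0.21; neither was called. C8a (vehicle 11.25, 11.00 to 11.64) read 10.14, 10.87 and 9.48, a change of -1.10 (SE 0.19). C8g (vehicle 12.18, 11.91 to 12.37) changed by -0.41 (SE 0.14). The remaining members were not called: C3 (vehicle 13.59, 13.48 to 13.67) at 0.14, Cfd (vehicle 7.17, 6.09 to 7.66) at 0.53, C4bpa (vehicle 12.04, 11.58 to 12.64) at -0.18, Cfi (vehicle 12.21, 11.92 to 12.41) at 0.096, C5 (vehicle 11.07, 10.76 to 11.83) at -0.21, C8b (vehicle 11.32, 11.13 to 11.55) at -0.14 and C9 (vehicle 12.18, 11.91 to 12.86) at 0.41.

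The comparison of the combination with galactosamine alone asks what nevirapine dosing adds at the same time after the same injection. At 24 h 10 of 31 members were higher with nevirapine and none was lower, where 37.8% of all genes were called (16.2% higher, 21.6% lower). Mbl2 had the largest difference, 2.74 (SE 0.19, adjusted p = 4.3e-14) or 6.70-fold, as its combination rats lay in or above the range of the vehicle rats and the galactosamine rats far below it. Its second probe set gave a difference of 1.90. Cfd read 7.56, 6.92 and 6.92 in combination rats, 5.50, 5.88 and 6.06 in galactosamine rats and 6.71, 6.74 and 6.37 in vehicle rats, a difference of 1.32 (SE 0.24). Pros1 differed by 1.19 (SE 0.14) and C5 by 0.94 (SE 0.22), with C5 at 10.65, 11.14 and 10.42 in combination rats against 10.05, 9.64 and 9.70. F9 differed by 0.61 (SE 0.12), Masp2 by 0.59 (SE 0.15) and C1s by 0.59 (SE 0.21). Klkb1 (0.68), F5 (0.37) and Proc (0.25) were called with overlapping groups. F10 did not differ detectably, at 0.012 with an interval of -0.30 to 0.33.

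Under cyclic loess normalization 6 members were higher (F9, Pros1, Mbl2, Masp2, Cfd and C5, all among the 10) and 4 were lower (F2, Fgg, Serpinc1 and C3, at -0.33, -0.30, -0.29 and -0.21). Without rat 69 the count was 6, since F5 (0.21), Klkb1 (0.29), Proc (0.27), C1s (0.53) and Masp2 (0.30) lost their calls and Fgg (-0.26) was called. Without rat 24 Klkb1 (0.16), Proc (0.15) and C1s (0.45) lost theirs. The count was 5 when only these groups entered the fit. Mbl2, Pros1, Cfd and C5 kept their calls under all 13 alternatives run for this comparison. The GAPDH difference lay between 0.18 and 0.28 in the combination rats and between 0.39 and 0.53 in the galactosamine rats, and its part in the result was tested only as a covariate, which ended the call of Proc alone. Cfd is also expressed in fat. Of 6 adipocyte markers measured 1 was lower and none higher in this comparison, with summed levels of 9.41 to 9.66 in the combination rats and 9.56 to 10.24 in the galactosamine rats. Adipoq, Plin1 and Lep were below the background level of 4.37 in all groups, and Cidec, Lipe and Fabp4 were not; the part of fat in the difference of Cfd was not tested.

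The promoters of the members were searched for motifs of liver factors, since members of 1 cascade had unlike values at 24 h. RefSeq windows (build GRCr8) were found for 26 of the 31 members, and the 250 bases before the start of the gene were searched on both strands for 4 short motifs of liver and acute-phase factors, spelled TTGCNNAA (C/EBP), GTTAATNATT (HNF1), CAAAGTCC (HNF4) and TTCNNNGAA (STAT). The windows of Fgb and C8a are shown because both hold a C/EBP and a STAT match yet had unlike values. Fgb was not called with its brightest probe set, and C8a was lower by 1.53. The windows of F5 and Mbl2 are shown because these genes had the largest falls of their cascades and hold no match. Each is written 5′ to 3′ in the direction of the gene, with matches in capitals.

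Fgb, chr2:170700876-170701125, minus strand: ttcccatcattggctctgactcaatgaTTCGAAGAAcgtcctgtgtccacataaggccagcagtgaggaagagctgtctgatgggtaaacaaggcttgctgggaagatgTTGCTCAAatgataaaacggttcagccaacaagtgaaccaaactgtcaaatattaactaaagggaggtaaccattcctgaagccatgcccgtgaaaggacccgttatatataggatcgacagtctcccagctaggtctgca

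C8a, chr5:124866632-124866881, minus strand: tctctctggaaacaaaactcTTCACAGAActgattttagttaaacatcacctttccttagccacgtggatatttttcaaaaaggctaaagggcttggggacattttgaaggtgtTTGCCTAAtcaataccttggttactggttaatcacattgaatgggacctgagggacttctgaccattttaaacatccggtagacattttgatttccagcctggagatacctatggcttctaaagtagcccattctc

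F5, chr13:79046407-79046656, plus strand: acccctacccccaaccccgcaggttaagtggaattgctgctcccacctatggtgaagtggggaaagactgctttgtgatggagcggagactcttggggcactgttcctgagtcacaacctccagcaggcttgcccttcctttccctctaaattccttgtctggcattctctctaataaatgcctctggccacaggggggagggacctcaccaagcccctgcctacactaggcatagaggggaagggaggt

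Mbl2, chr1:237430793-237431042, plus strand: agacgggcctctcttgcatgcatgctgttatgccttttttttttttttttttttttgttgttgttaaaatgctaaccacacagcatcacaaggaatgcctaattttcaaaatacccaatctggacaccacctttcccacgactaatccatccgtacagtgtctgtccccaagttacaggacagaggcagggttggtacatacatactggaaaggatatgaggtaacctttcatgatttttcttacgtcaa

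In Fgb the STAT letters lie 223 to 215 bases before the start and the C/EBP letters 141 to 134 bases before it, and in C8a they lie at 230 to 222 and at 136 to 129. A C/EBP match was found in 11 of the 26 members, against 9.22% of all 33469 windows of this length, and a STAT match in 5 of 26 against 7.67%. The HNF1 letters were in C5 and Plg alone, against 0.323% of all windows, and the HNF4 letters in none, against 1.14%. Of the 16 matched members that were lower at 24 h of galactosamine 5 held a C/EBP match, and of the other 10 matched members 6 did. A match describes letters in this window and not a bound site.

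The first changes were present at 3 h. After galactosamine alone 4 members were called, 3 higher and 1 lower, where 32.9% of all genes were called (14.9% higher, 18% lower), so the members' share was below that of all genes. C6, part of the membrane attack complex, read 8.17, 8.19 and 8.53 in vehicle rats and 9.65, 9.13 and 9.34 in galactosamine rats, a change of 1.07 (SE 0.32, adjusted p = 0.0089). Pros1 read 10.28, 10.32 and 10.19 against 10.86, 10.78 and 10.76, a change of 0.54 (SE 0.14), and Cfd changed by 0.85 (SE 0.24). C3 changed by -0.28 (SE 0.063). F5 read 11.15, 11.17 and 11.06, within the range of its vehicle rats (11.18, 11.05 and 11.08). Pros1 and Cfd were thus higher at 3 h and lower at 24 h of galactosamine. After cyclic loess normalization the calls at 3 h were 3 higher and 3 lower. Among all genes called, 45.4% were higher without this normalization and 44.5% with it.

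At 3 h of the combination 10 members were called, 6 higher and 4 lower, against 32.5% of all genes (15.2% higher, 17.4% lower). Of the 6 higher members 5 were complement genes. C6 read 9.99, 9.92 and 9.29, a change of 1.44 (SE 0.32). C1s read 11.95, 12.02 and 11.85 against 10.74, 10.79 and 10.84, a change of 1.15 (SE 0.21), and C1r 11.01, 11.24 and 10.85 against 10.00, 10.09 and 9.96, a change of 1.02 (SE 0.20, adjusted p = 0.00012). The combination rats were above the vehicle rats in each of these genes. Pros1 read 11.14, 11.26 and 11.29, a change of 0.97 (SE 0.14), Cfd changed by 0.85 and Mbl2, at 11.55, 11.71 and 11.70 against 11.13, 11.27 and 10.88, by 0.56 (SE 0.19). The 4 lower members were coagulation genes: F5 read 10.43, 10.56 and 10.54, a change of -0.59 (SE 0.12), with Serpind1 at -0.45, F12 at -0.42 and Proc at -0.34. Serpind1 read 12.38, 12.35 and 12.11 against 12.78, 12.69 and 12.72.

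Against galactosamine alone at 3 h, C1r (0.90), C1s (0.70), Pros1 (0.43) and C3 (0.30) were higher with nevirapine and F5 was lower (-0.61, SE 0.12, adjusted p = 0.00033), where 17.7% of all genes were called (10.6% higher, 7.06% lower). Without rat 17 the count was 3. F5 was lower with nevirapine than without it at 3 h and higher at 24 h. In both groups and their vehicle rats the last oral dose preceded removal of the liver by 5 h at this time. The macrophage list (9 genes measured, Ccr2 below background in all groups) had all 9 genes higher than vehicle at 3 h of both treatments, with summed levels of 11.76 to 11.80 after galactosamine, 12.58 to 12.74 after the combination and 10.43 to 11.27 in vehicle rats; its part in the changes of the complement members was not tested.

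Between 24 h and 48 h of galactosamine 18 members rose and 2 fell, against 22.7% and 22.5% of all genes (14 and 4 after cyclic loess normalization). Among all genes called, 50.3% rose without this normalization and 54.1% with it. Klkb1 rose by 2.36 (SE 0.29) to 11.28 and 10.86, Mbl2 by 2.47 (SE 0.21) to 10.87 and 10.61, F5 by 1.80 (SE 0.13) to 10.68 and 10.78, Masp2 by 1.78 (SE 0.17) to 10.49 and 10.46, C5 by 1.63 (SE 0.25) and C8a by 1.61 (SE 0.21) to 11.51 and 11.19. Against vehicle rats at 48 h only 4 members were then called, all lower, where 39.4% of all genes were called (24.9% higher, 14.5% lower). F12 read 12.28, 12.37 and 12.38 in vehicle rats and 11.31 and 11.21 in galactosamine rats, a change of -1.08 (SE 0.13, adjusted p = 2.8e-08). Proc read 11.79, 11.87 and 11.87 against 11.04 and 11.06, a change of -0.80 (SE 0.11), and C8g changed by -0.82 (SE 0.15) and F2 by -0.28 (SE 0.11). F12 and C8g were the members that fell further between 24 h and 48 h, by 0.65 and 0.43. The GAPDH difference of these 2 rats (0.13 and 0.14) lay below that of the vehicle rats at 48 h (0.48 to 0.74), and its part in the change was tested only as a covariate.

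Of the fibrinogen chains Fga and Fgb rose at this later time, and the rise of Fga depended on the scaling. After cyclic loess normalization Fgb kept its call (0.47) and Fga lost it (0.19). Under that normalization Fga (0.37) and Fgg (0.53) were higher than vehicle already at 24 h of galactosamine. Between 24 h and 48 h of galactosamine Fga rose by 0.46 (SE 0.16) to 13.67 and 13.62, and Fgb by 0.74 (SE 0.15) to 13.61 and 13.59. Fgg read 13.53 and 13.48 and was not called. All of these values were above the vehicle rats at 48 h, which read 13.41, 13.49 and 13.34 for Fga, 13.27, 13.37 and 13.23 for Fgb and 13.28, 13.41 and 13.20 for Fgg, but none of the 3 chains was called against them. Between 48 h and 8 d of galactosamine 4 members rose and 7 fell, against 11.9% and 23% of all genes, with a total of 11 that was 7 without rat 26, 6 without rat 27 and 7 without 1 of the galactosamine rats at 8 d. Among them Fga fell by 0.47, Fgb by 0.57 and Fgg by 0.32. Over the same step of the combination 1 member rose and 6 fell, against 15.2% and 19.9% of all genes, and Fga fell by 0.44, Fgb by 0.46 and Fgg by 0.38. At 8 d the combination rats read 12.99, 13.07 and 12.99 for Fga, 12.95, 12.93 and 12.80 for Fgb and 12.99, 12.997 and 12.95 for Fgg. The vehicle rats also differed over time, with group means between 13.18 and 13.43 for Fga.

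**Figure D4:**
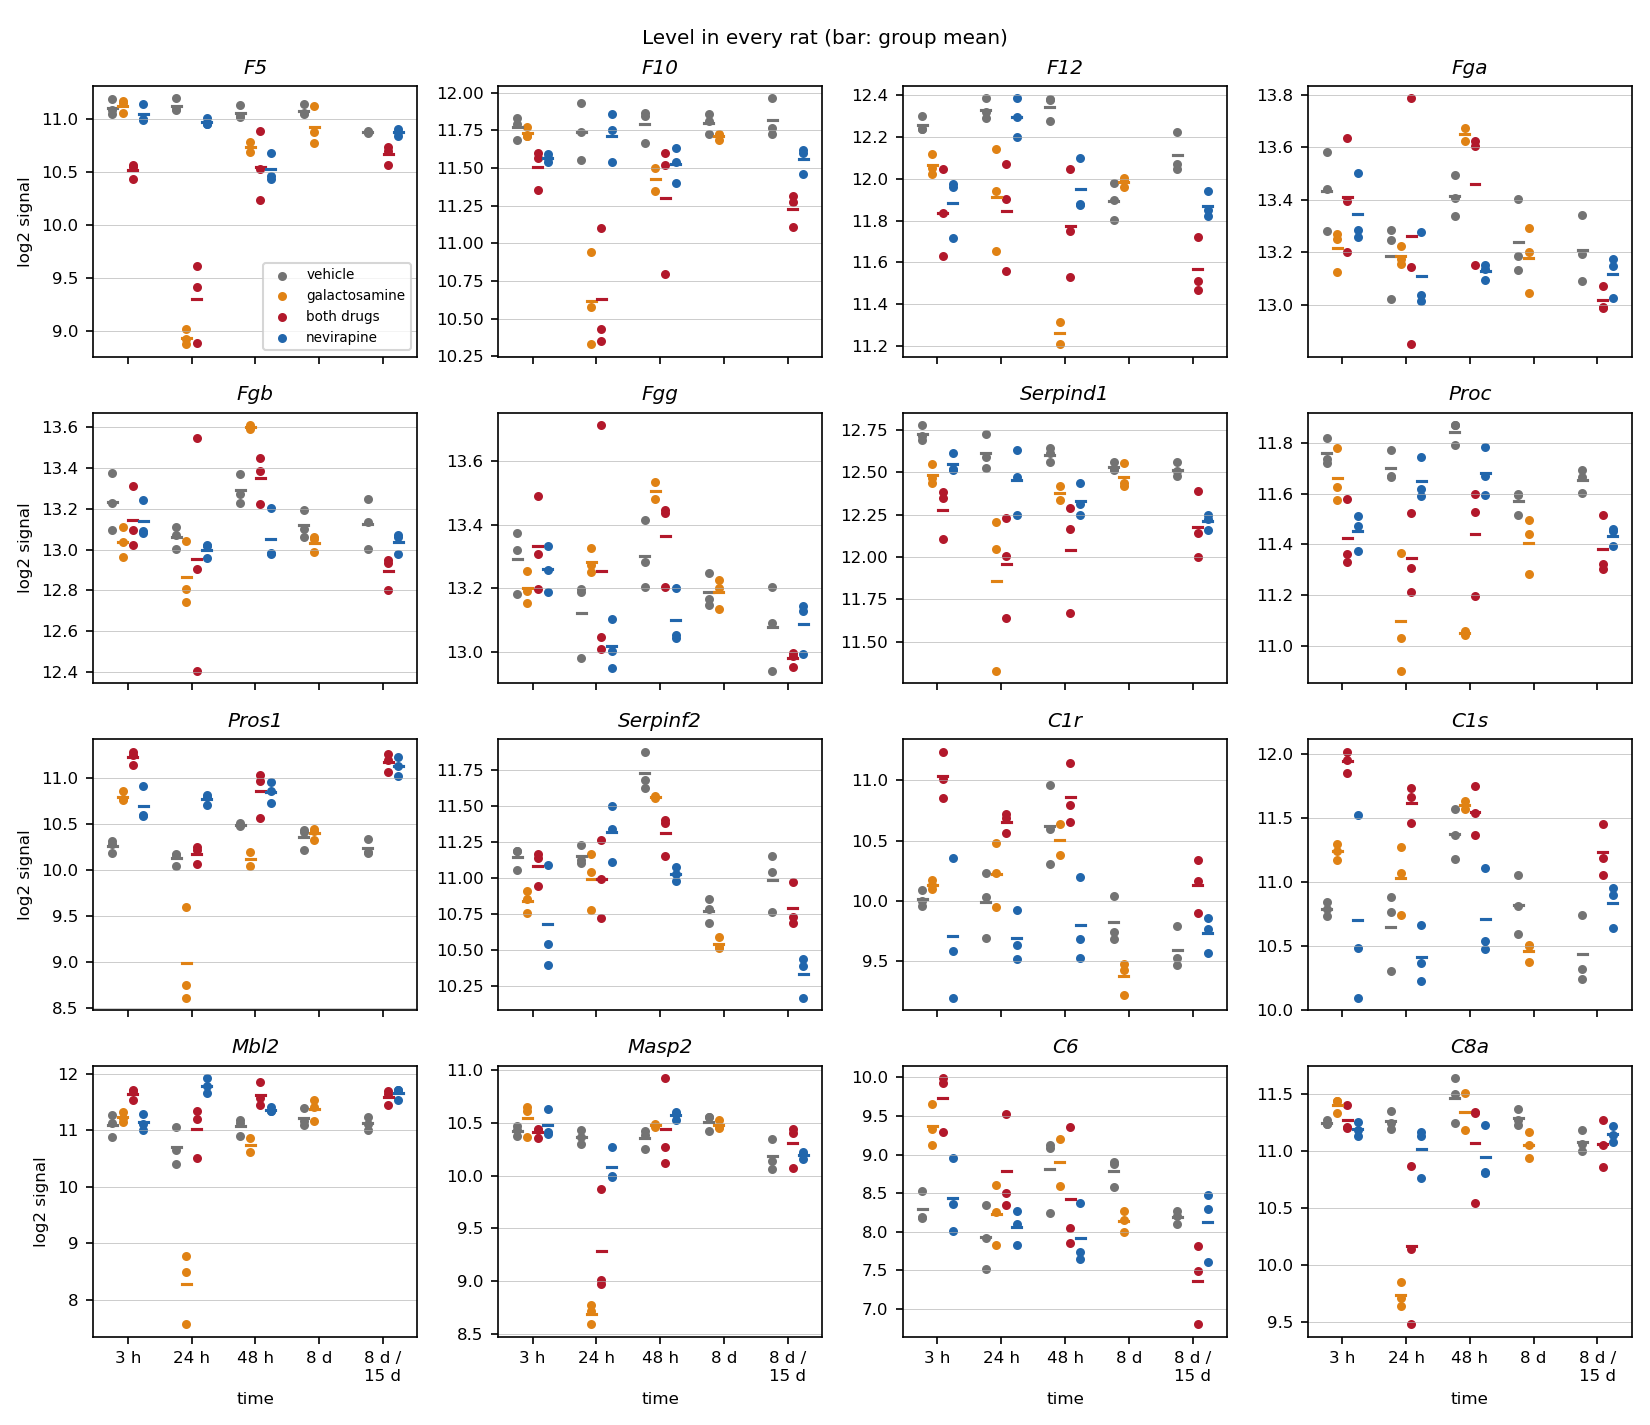
Log2 signal of 16 members in every rat (points) with group means (bars), by time, for vehicle (grey), galactosamine (orange), both drugs (red) and nevirapine (blue); each panel has its own axis, which does not start at 0. The last position holds vehicle and nevirapine at 15 d and the combination at 8 d after the injection. The galactosamine rats at 24 h lie below all other rats in Mbl2 and Pros1, and the combination and nevirapine rats of the last position lie above the vehicle rats in Pros1.

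At 48 h of the combination 11 members were called, 9 lower and 2 higher, where 15.9% of all genes were called (5.77% lower, 10.2% higher); the share of members called lower was 29.0%. All 9 lower members were coagulation genes: F12 (-0.57), Serpind1 (-0.56), F5 (-0.51), F10 (-0.49), Serpinf2 (-0.41), F9 (-0.41), Proc (-0.40), F2 (-0.39) and Plg (-0.33). Cfd (0.71) and Mbl2 (0.55) were higher. Of the 10 hepatocyte markers 2 were lower and 1 was higher, with summed levels of 16.16 to 16.22 against 16.30 to 16.33 in vehicle rats, and 8 of 9 macrophage markers were higher (11.83 to 12.83 against 10.34 to 11.47); the part of either list was not tested. This count rested on rat 70, which read lowest of its group in F5 (10.24, against 10.88 and 10.52), F10 (10.79, against 11.52 and 11.60) and Serpind1 (11.67, against 12.16 and 12.29). Without that rat 3 members were called; without vehicle rat 11 the count was 6 and without vehicle rat 12 it was 7. With only these groups in the fit none was called, although 16 of 31 had an unadjusted p under 0.05 in the limma fit of all groups. Serpinf2 read 11.15, 11.38 and 11.40 against 11.63, 11.88 and 11.68 in vehicle rats, the highest of its vehicle groups. With all 15 vehicle rats as the control its change was 0.16. The GAPDH difference lay between 0.29 and 0.35 in these combination rats, below that of their vehicle rats, and as a covariate it left 6 members called, all lower. Against galactosamine alone at 48 h, 5 members were higher with nevirapine and none was lower, where 29.3% of all genes were called (12.1% higher, 17.1% lower): Mbl2 by 0.89 (SE 0.21), Pros1 by 0.74 (SE 0.15), F12 by 0.51, C8g by 0.50 and Proc by 0.39. Cyclic loess normalization gave 5 higher and 1 lower, and without rat 27 the count was 2. Among all genes called, 41.5% were higher without this normalization and 31.6% with it. Within the combination 9 members rose from 24 h to 48 h, led by Klkb1 (1.60), F5 (1.24) and Masp2 (1.15), and none fell, against 12.3% and 16.2% of all genes. After cyclic loess normalization 8 rose and 1 fell. Among all genes called in this step, 43.1% rose without this normalization and 47.8% with it.

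At 8 d of galactosamine alone no member was called by limma, where 0.0352% of all genes were (0.00703% higher, 0.0281% lower), and 1 of 31 (C1r, -0.45) had an unadjusted p under 0.05. The 95% intervals reached at most 1.30 in size, for C6. At 8 d of the combination 6 members were called, 3 higher and 3 lower, against 24.8% of all genes (13.1% higher, 11.7% lower), so the share of members called was below that of all genes. Pros1 read 11.26, 11.20 and 11.06 against 10.20, 10.34 and 10.18 in vehicle rats, a change of 0.93 (SE 0.14, adjusted p = 5.7e-06). C1s read 11.45, 11.05 and 11.18 against 10.32, 10.25 and 10.74, a change of 0.79 (SE 0.21), and C1r 10.34, 9.90 and 10.16 against 9.47, 9.53 and 9.80, a change of 0.54 (SE 0.20, adjusted p = 0.042). F10 read 11.27, 11.11 and 11.31 against 11.77, 11.72 and 11.96, a change of -0.59 (SE 0.16). F12 read 11.72, 11.47 and 11.51 against 12.05, 12.07 and 12.22, a change of -0.55 (SE 0.12), and Proc 11.52, 11.30 and 11.32 against 11.70, 11.66 and 11.60, a change of -0.27 (SE 0.10).

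The choice of vehicle group mattered at 8 d. With the vehicle rats at 8 d as the control C1r (0.31), C1s (0.41), F12 (-0.33) and Proc (-0.19) lost their calls, and with all vehicle rats C1r (0.13) and C1s (0.42) did. The group means of C1r in vehicle rats ran from 9.60 to 10.62, those of C1s from 10.44 to 11.37. Pros1 and F10 kept their calls under all 15 alternatives run for this comparison. C1r also lost its call without rats 13, 14, 73 or 87 in turn (0.44 to 0.52) and Proc without rats 13, 14, 15, 84 or 87 in turn (-0.30 to -0.23). The call of C1r was further lost after cyclic loess normalization (0.51) and with the GAPDH difference as a covariate (0.51). Cyclic loess normalization gave 2 higher and 5 lower. Among all genes called, 52.9% were higher without this normalization and 52.5% with it. The stellate cell and myofibroblast list moved at the same time: 8 of its 10 measured genes were higher, with summed levels of 12.55 to 12.97 in the combination rats and 10.73 to 11.24 in the vehicle rats, and 4 of 9 macrophage markers were higher (11.77 to 12.54 against 11.39 to 11.56); the part of either list in the changes of C1r and C1s was not tested.

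Set against galactosamine alone, each relative to its own vehicle rats, the combination at 8 d differed in 4 members, 3 higher and 1 lower, where 11.2% of all genes were called (5.87% higher, 5.34% lower): C1s by 1.15 (SE 0.30), C1r by 0.99 (SE 0.28), Pros1 by 0.89 (SE 0.20) and F12 by -0.64 (SE 0.17). In galactosamine rats at 8 d the 4 genes stood at -0.36, -0.45, 0.042 and 0.092. The call of C1r was lost without rat 100 (0.88, adjusted p = 0.065). Against nevirapine alone at 15 d, Serpinf2 was higher by 0.46 (SE 0.13) and Masp1 by 0.56 (SE 0.15), where 12.4% of all genes were called (9.31% higher, 3.09% lower). With the mean of all Masp1 probe sets its difference was 0.12, and without rat 44 neither was called. Without rat 73 or rat 87, 1 of them was. Serpinf2 was also the only member to depart from the sum of the effects of both drugs, by 0.69 (SE 0.19, adjusted p = 0.037), in a contrast that called 2.82% of all genes (2.05% higher, 0.774% lower). It read 11.04, 10.77 and 11.15 in vehicle rats at 15 d, 10.39, 10.17 and 10.44 after nevirapine, 10.97, 10.69 and 10.73 after the combination, and 10.51, 10.59 and 10.52 after galactosamine at 8 d, whose vehicle rats read 10.78, 10.85 and 10.68. The nevirapine rats were thus the lowest. The call was lost after cyclic loess normalization (adjusted p = 0.062) and without any 1 of rats 43, 44, 73, 87, 99 and 100 or of the 3 galactosamine rats at 8 d.

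Pros1 was higher than in vehicle rats at 3 of the 4 times of nevirapine alone. The rats read 10.92, 10.58 and 10.60 at 3 h (change 0.44, SE 0.14), 10.79, 10.71 and 10.82 at 24 h (0.65, SE 0.14), 10.73, 10.96 and 10.86 at 48 h (not called) and 11.03, 11.24 and 11.14 at 15 d (0.89, SE 0.14, adjusted p = 2.5e-05). At 15 d the levels of nevirapine and combination rats overlapped. Mbl2 read 11.65, 11.79 and 11.92 at 24 h of nevirapine, a change of 1.08 (SE 0.19) against 24 h vehicle rats whose mean was the lowest of the vehicle groups, and its second probe set gave 1.05. These were the only 2 members called at 24 h of nevirapine, where 11.2% of all genes were (4.55% higher, 6.63% lower). At 3 h 5 members were called, where 15.1% of all genes were (7.59% higher, 7.48% lower), with Serpinf2 (-0.47), F12 (-0.37), Proc (-0.31) and Plg (-0.29) lower; livers of this group were taken 3 h after the dose and those of its vehicle rats 5 h after it, and the sham injection came 1 h and 3 h before, so that treatment and time since the dose and the injection cannot be told apart, and none was called with only these groups in the fit or without vehicle rat 1 or 2. Without rats 31, 32, 33 or vehicle rat 3 in turn the count was 2 or 3. At 15 d Serpinf2 (-0.65, SE 0.13) and Plg (-0.28, SE 0.10) were lower and Pros1 was higher, where 13.9% of all genes were called (5.13% higher, 8.79% lower). This count of 3 fell to 2 without any 1 rat of the compared groups. With the GAPDH difference as a covariate 2 members were higher and 1 was lower.

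At 48 h of nevirapine 10 members were lower and none was higher, where 17.4% of all genes were called (6.44% lower, 11% higher) and 32.3% of the members were lower. Of the 10 hepatocyte markers 4 were lower, with summed levels of 16.09 to 16.21 against 16.30 to 16.33 in vehicle rats, and their part was not tested. The members called were C6 (-0.90), C5 (-0.85), C1r (-0.82), Serpinf2 (-0.70), C1s (-0.66), C9 (-0.60), C8b (-0.59), F5 (-0.53), F12 (-0.39) and Plg (-0.38). C5 read 11.43, 11.83 and 11.30 in vehicle rats and 11.11, 10.43 and 10.48 in nevirapine rats, and C1r 10.60, 10.96 and 10.30 against 10.20, 9.68 and 9.53. The vehicle group at 48 h had the highest mean of the 5 vehicle groups for 9 of these 10 genes, all but F5, and for 22 of the 31 members. The same held for 6 of the 9 members lower at 48 h of the combination. With all 15 vehicle rats as the control 4 members were called, 3 lower and 1 higher, with the GAPDH difference as a covariate 6 were lower, and without vehicle rat 11 the count was 5. Without rat 41 or rat 42 it was 6. The GAPDH difference lay between 0.014 and 0.86 in the nevirapine rats of this time.

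Other genes of these cascades came from lists of genes that are not members. Of 26 other coagulation and fibrinolysis genes 8 were higher and 10 lower at 24 h of galactosamine, against 30.2% and 28.5% of all genes. Anxa2, a cell-surface receptor for plasminogen and its activator, was higher by 3.33 (SE 0.36), Plaur, the urokinase receptor, by 2.84 (SE 0.25) and Procr, the endothelial protein C receptor, by 2.57 (SE 0.30), while Hrg, a plasma glycoprotein made by hepatocytes, was lower (-2.28, SE 0.19). At 24 h of the combination 6 were higher and 5 lower, against 20.7% and 16% of all genes. At 8 d of the combination 7 of the 26 were higher and none was lower, against 13.1% and 11.7% of all genes, among them Plat, tissue plasminogen activator (1.37, SE 0.33), and Vwf, the endothelial carrier of factor VIII (0.98, SE 0.21). Of 21 other complement genes 6 were higher and 3 lower at 24 h of galactosamine, so that the share higher was near that of all genes and the share lower was below it, with C4bpb, the partner chain of C4bpa, at -1.94 (SE 0.34), and 9 were higher and 2 lower at 24 h of the combination. C1qb (1.57), C1qa (1.36) and C1qc (1.19), the chains of C1q, made largely by macrophages, were the largest of these, and 8 of 9 macrophage markers were higher at that time, with summed levels of 12.20 to 12.49 against 10.73 to 10.77 in vehicle rats.

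Of 23 other secreted hepatocyte proteins none was higher and 8 were lower at 24 h of galactosamine, against 28.5% of all genes lower, led by Serpina7 (-3.20, SE 0.50), a thyroxine carrier, and 6 were lower at 24 h of the combination, against 16%. Of 17 hepatocyte transcription factors 11 were lower and 1 was higher at 3 h of galactosamine, against 18% and 14.9% of all genes, with Cebpa, a C/EBP factor, at -3.68 (SE 0.18) and Foxa3 at -2.93 (SE 0.19), and at 24 h 8 were lower and 5 higher. Of 23 acute-phase and IL-6 signalling genes 7 were higher and 3 lower at 3 h of the combination, against 15.2% and 17.4% of all genes, with Lcn2, an iron-binding protein of the acute phase, at 4.11 (SE 1.09) and Il1b at 2.35 (SE 0.31), against 1 higher and 3 lower at 3 h of galactosamine. The part of these genes in the changes of the members was not tested.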

How the data were processed

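The authors deposited log2 probe set signals for 50 rat liver arrays. The submitters' processing notes name RMA and limma without versions, and their roles beyond that are not given in the sources used here. Groups came from the sample labels, and values were used as deposited, with no filter. Of 31099 probe sets, 20826 carried 1 symbol and 436 several; 4525 genes had more than 1 probe set. The members and lists were chosen with earlier results of these data known.

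Limma 3.58.1 (R 4.3.3) fitted 17 group means and tested 22 comparisons over 14217 genes, and was also run on simulated data. There 100 of the 14217 genes were moved by each amount, and it recovered 59% of 1.5-fold and 97% of 2-fold changes for galactosamine at 24 h. For the departure from the sum at 8 d it recovered 21% and 73%. Many more genes were called in the data at 24 h of galactosamine (58.8%), so the simulated shares do not give the recovery in that comparison. The number of arrays limits the precision, and p-values measure the spread between rats. Signals under 4.37, the highest mean of 27 bacterial control probe sets, were not shown to exceed background.

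Every member was named. Values of every rat were given or plotted for the largest called change of each role and direction at 24 h of the combination, the fibrinogen chains and members called at 8 d; up to 4 genes were named from each other list. Mbl2, Klkb1, Cfd and C5 were singled out after their values were seen, as were the sequences. Alternatives were another set of groups in the fit, prior, filter on dim genes, probe set rule, normalization (cyclic loess), array weights and control group, and each rat left out. The GAPDH covariate and the omission of rats 31, 63 and 70 were added after seeing the data. Plots used matplotlib 3.10.9.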

Additional observations from a re-analysis of the deposited data

Results flagged for a closer look

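These differences between treatments passed the test of the difference itself (limma, adjusted p under 0.05), and are given as combination minus galactosamine on the log2 scale. At 3 h they were C1r (0.90), C1s (0.70), Pros1 (0.43), C3 (0.30) and F5 (-0.61). At 24 h they were Mbl2 (2.74), Cfd (1.32), Pros1 (1.19), C5 (0.94), Klkb1 (0.68), F9 (0.61), Masp2 (0.59), C1s (0.59), F5 (0.37) and Proc (0.25). At 48 h they were Mbl2 (0.89), Pros1 (0.74), F12 (0.51), C8g (0.50) and Proc (0.39). Between the effects at 8 d, each against its own vehicle rats, they were C1s (1.15), C1r (0.99), Pros1 (0.89) and F12 (-0.64), and Serpinf2 departed from the sum of both drugs by 0.69.

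The probe sets shared by C2 and Cfb, which encode the homologous proteases that cleave C3 in the classical and the alternative pathway, were not counted among the members because their signal cannot be given to either gene. Of these, 3 were above vehicle at 3 h of the combination, by 0.60, 0.32 and 0.95, and the one with the largest difference was also above vehicle at 3 h of galactosamine, by 0.52. In other comparisons probe sets of these 4 were below vehicle (limma, adjusted over all probe sets): 2 at 24 h of galactosamine (-0.30 and -0.43), 1 at 48 h of galactosamine (-0.56), 2 at 48 h of nevirapine (-0.44 and -0.43) and 1 at 15 d of nevirapine (-0.54).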

How the results depend on the processing

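Counts below are of the 31 members called. Without 1 rat at a time they lay between 3 and 4 for galactosamine at 3 h, 15 and 19 at 24 h, 3 and 4 at 48 h and 0 and 0 at 8 d; between 7 and 11, 12 and 15, 3 and 12, and 4 and 6 for the combination at 3 h, 24 h, 48 h and 8 d; and between 0 and 3, 2 and 2, 5 and 11, and 2 and 2 for nevirapine at 3 h, 24 h, 48 h and 15 d. For the combination against galactosamine they lay between 3 and 5 at 3 h, 6 and 14 at 24 h and 2 and 5 at 48 h, between 3 and 4 for the difference of effects at 8 d, 0 and 2 against nevirapine and 0 and 1 for the departure from the sum. For the steps in time they lay between 16 and 21 and between 6 and 9 for galactosamine and between 7 and 13 and between 5 and 10 for the combination.

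With only the compared groups in the fit the counts were 7 and 8 for galactosamine at 3 h and 48 h, 0 and 10 for nevirapine at 3 h and 15 d, 0 and 10 for the combination at 48 h and 8 d, 5 and 2 for the combination against galactosamine at 24 h and 48 h, 6 against nevirapine, 5 for the departure from the sum, and 3 and 3 for the steps of the combination. Array weights gave 7 and 12 for galactosamine at 3 h and 48 h, 9, 21 and 12 for nevirapine at 3 h, 48 h and 15 d, 11 for the combination at 8 d, 8 against nevirapine, 5 for the departure from the sum and 17 for galactosamine from 48 h to 8 d. With all vehicle rats as 1 control they were 10 and 3 for galactosamine at 48 h and 8 d, 4 and 8 for nevirapine at 48 h and 15 d and 12 for the combination at 8 d. The mean of probe sets gave 1 against nevirapine, and cyclic loess normalization 0 for the departure from the sum. The GAPDH covariate gave 3 and 6 for nevirapine at 3 h and 48 h and 6 for the combination at 48 h, and leaving out rats 31, 63 and 70 gave 4 for the latter. The other alternatives kept each count within 1.5 times.

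Signs turned in these cases, and the cause was not tested. Under cyclic loess normalization at 24 h of galactosamine F2 (0.10), Plg (0.064), Serpinc1 (0.30) and Cfi (0.26) turned, as did C3 in the combination against galactosamine at 24 h (-0.21) and Serpinc1 from 24 h to 48 h of galactosamine (-0.25). Masp1 turned from 48 h to 8 d of the combination with the mean of probe sets (-0.40). With all vehicle rats as 1 control Serpinf2 at 48 h of the combination (0.16), Nr0b2 at 3 h of nevirapine (-0.012) and Foxa2 at 8 d of the combination (-0.14) turned, the last also with vehicle rats at 8 d (-0.13). In the comparisons of 1 group with another, 183 values of called members lost their call without 1 rat while 719 kept it. Under the other alternatives 136 lost it with the same sign and 3 with the sign turned (F2 and Plg at 24 h of galactosamine and Serpinf2 at 48 h of the combination, as above), while 1106 kept it. With the difference of effects at 8 d and the departure from the sum included, 193 lost it without 1 rat and 137 under the other alternatives with the same sign.

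Groups held 2 or 3 rats, and 1 probe set stands for each gene. No paired analysis was possible because the groups share no rat numbers.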

Other observations

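Of all genes 14.9% were called higher and 18% lower at 3 h of galactosamine. Of 26 other coagulation and fibrinolysis genes 9 were higher and none was lower in the limma fit at that time. They included Procr at 2.10 (SE 0.30), Thbd, the endothelial thrombin receptor thrombomodulin, at 1.87 (SE 0.29), Tfpi2, a protease inhibitor of the extracellular matrix, at 1.63 (SE 0.21) and Plau, urokinase, at 1.18 (SE 0.27). Among the nuclear receptors of the transcription factor list, Nr0b2 (SHP, a repressor of bile acid synthesis) was at -4.16 (SE 0.35) and Nr1i3 (CAR, a xenobiotic sensor) at -2.77 (SE 0.31) at 24 h of galactosamine. Against galactosamine alone the combination was higher in both at 24 h, by 2.80 (SE 0.35) and 2.77 (SE 0.31). At 24 h of the combination Onecut1 was at -1.72 (SE 0.62) and Nr1i2 (PXR, another xenobiotic sensor) at -1.48 (SE 0.23).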
